A study of Mus musculus with 6 samples.

Results

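The genes described here are 41 listed genes of glucose transport, glycolysis and the response to low oxygen, read in embryonic lung buds of the mouse. They were taken by name, in a list chosen with earlier results of these data known. Of them, 39 were measured by a probe set (called a probe here) that the platform annotation gives to 1 gene, out of 19938 genes so measured. Where a gene had several such probes, the brightest was used. The glycolytic enzyme genes Gpi1 and Eno1 were not analysed here, because no probe of the annotation used carries their name alone. RNA came from whole lung buds at E11.5 (embryonic day), with 3 DKO and 3 control samples that the labels call biological replicates, on Affymetrix MoGene 1.1 ST arrays. The DKO buds had the genotype Shhcre:Hdac1fl/fl; Hdac2 fl/fl and the control buds Shhcre, so both groups carry the Cre allele, and both are of a mixed C57BL/6 and 129X1,129S1 background. Shhcre makes Cre recombinase from the Sonic hedgehog locus, which is active in the epithelium of the bud, so the mesenchyme, vessels and blood in the same sample keep the floxed genes. Single embryos and pools are not distinguished in the labels, and the p-values rest on the spread among these 6 arrays, some of which may be technical.

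Cells take up glucose through facilitative transporters of the Slc2a family and break it down to pyruvate by glycolysis, and pyruvate is either burned in mitochondria or reduced to lactate, which leaves through Slc16a transporters. When oxygen is short, prolyl hydroxylases of the Egln family no longer mark the alpha subunits Hif1a and Epas1 for destruction, and these factors raise transcription of glucose transporters, glycolytic enzymes, Vegfa and other targets. Embryonic tissues grow at low oxygen and rely on glycolysis, and Hdac1 and Hdac2 are histone deacetylases that act within repressor complexes.

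All values are log2 expression levels made by the authors with RMA, and a change is the DKO mean minus the control mean on that scale. The array medians lay between 7.87 and 7.89, so a change shared by all genes cannot be seen. The targeted gene Hdac1 had levels of 11.20, 11.23 and 11.23 in DKO 1, 2 and 3, against 11.48, 11.49 and 11.52 in controls 1, 2 and 3 (change -0.28, SE 0.047, adjusted p = 0.0193). Hdac1 passed in 9 of the 17 alternative settings, with adjusted p of up to 0.112 in the others. Hdac2 had 11.74, 11.77 and 11.70 in the DKO buds, against 11.83, 11.69 and 11.81 in the control buds (-0.043, SE 0.056, adjusted p = 0.845). The position of these probes relative to the floxed exons is not known here, so they are a limited check of the deletion. The lung determinant Nkx2-1 had levels of 10.20 to 10.44 in the DKO buds and 10.53 to 10.60 in the control buds, above the array medians in both. Of 19 measured markers of lung epithelium, 9 fell and 0 rose at an adjusted p under 0.05 (47.4%, beside 2.41% of all genes). There were 15 lower and 0 higher at an unadjusted p under 0.05, which is 78.9% beside 12.8% of all genes.

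Of the 39 measured genes, Slc2a3 and Eno2 rose in the DKO buds and the other 37 did not pass the threshold, an adjusted p under 0.05 in limma over all 19938 genes. The 2 rises make up 5.13% of the measured members, and over all genes 2.41% passed in either direction, 1.03% as higher and 1.38% as lower. Slc2a3 was singled out with its rise known, and without it 1 of 38 members passed (2.63%), close to the share over all genes. limma called 0 members lower, while 1 member, Pdk3, lay lower at an unadjusted p under 0.05. The values leaned upward beyond these calls. Of the 39 changes, 28 were above 0 and 11 below, with a median of 0.088, against a median of 0.00029 over all genes. At an unadjusted p under 0.05 there were 14 members higher and 1 lower, which is 38.5% of the members. Over all genes the share was 12.8%, with 6.00% higher and 6.83% lower. The DKO and control values did not overlap for 17 members, with DKO higher for 16 and lower for 1. That is 43.6% of the members, beside 18.8% of all genes in either direction, 8.36% with DKO higher and 10.4% with DKO lower. Without Slc2a3, 27 changes were above 0 and 11 below. Of those 38 members, 36.8% had an unadjusted p under 0.05 and 42.1% did not overlap between groups. Apart from Slc2a3 the changes were small, from -0.12 in Pdk3 to 0.40 in Eno2.

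**Figure D1:**
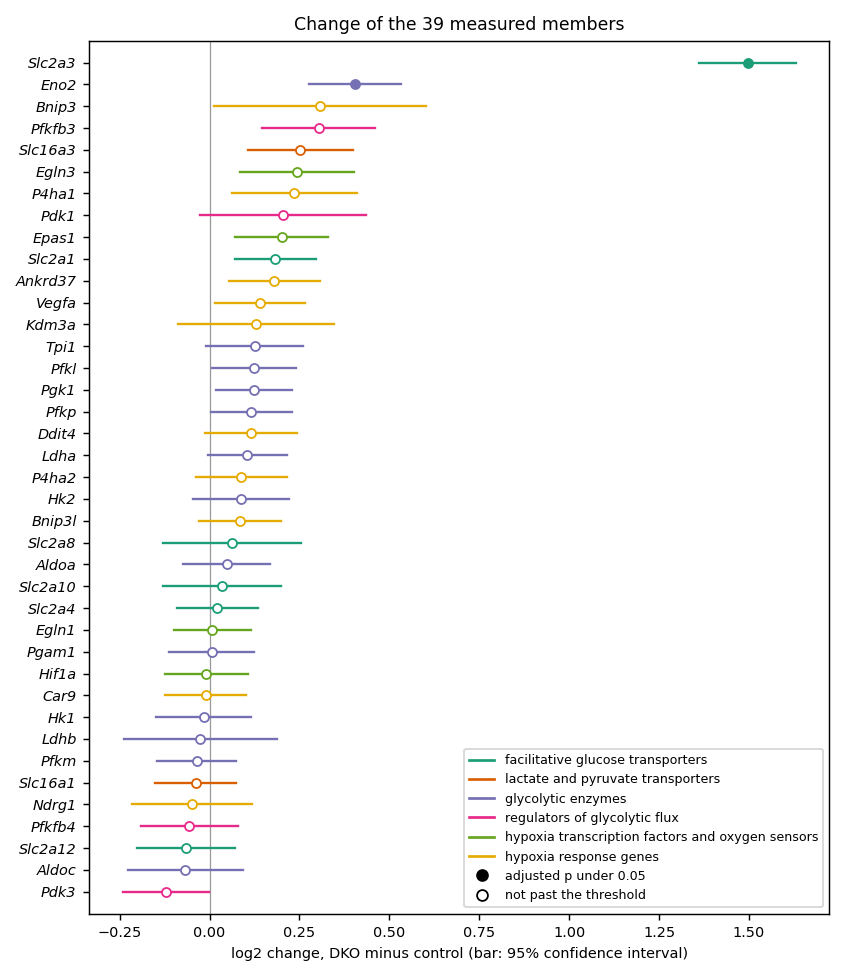
Log2 change of each of the 39 measured genes, DKO minus control, on the horizontal axis, with 95% confidence intervals from limma as bars and colours for the role of the gene. Filled points passed the threshold. Slc2a3 stands at 1.5, Eno2 follows at 0.40, and 24 of the 39 intervals include 0.

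Among the 6 facilitative glucose transporters, Slc2a3 rose and 0 fell (16.7%, beside 2.41% of all genes). Slc2a3 encodes a high-affinity glucose transporter best known from neurons and early embryos. Its log2 level was 11.11, 11.12 and 11.19 in DKO 1, 2 and 3, against 9.60, 9.59 and 9.74 in controls 1, 2 and 3. The 3 DKO values lay close together, and the lowest of them was 1.37 above the highest control value. With a change of 1.5 (SE 0.059, 95% interval 1.36 to 1.63), the DKO level was 2.82-fold the control level and the rise was the largest of all 19938 genes (adjusted p = 1.11e-05, limma). It passed under each of the 17 alternative settings tried, with changes of 1.47 to 1.55. Its rank among rises was 2 without DKO 3 and 6 among all probes taken as separate features. In whole buds, more cells that carry Slc2a3 mRNA and more of it per cell cannot be told apart.

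Slc2a1, the widely expressed glucose transporter of most embryonic cells, pointed the same way by a much smaller amount. It had 11.60, 11.58 and 11.55 in the DKO buds, against 11.35, 11.43 and 11.40 in the control buds. The groups did not overlap, but the change of 0.18 did not pass (SE 0.050, 95% interval 0.070 to 0.30, adjusted p = 0.119). The call depended on the setting: Slc2a1 passed with an intensity trend (adjusted p = 0.0225), with array weights (0.0286) and among the brighter 50% of genes (0.0422).

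The other 4 transporters overlapped between the groups. Slc2a4, the insulin-responsive transporter of muscle and fat, had 9.03, 9.11 and 9.10 in the DKO buds, against 9.04, 9.05 and 9.09 in the control buds (change 0.022, 95% interval -0.091 to 0.13). Slc2a8, whose protein sits mostly inside the cell, had 8.02, 8.23 and 8.005 in the DKO buds, against 8.14, 8.05 and 7.87 in the control buds (0.063, -0.13 to 0.26). DKO 2 alone lay above all controls there. Slc2a10, which is mutated in a human disease of tortuous arteries, had 8.67, 8.45 and 8.42 in the DKO buds, against 8.53, 8.46 and 8.45 in the control buds (0.035, -0.13 to 0.20). Slc2a12 had 8.06, 8.03 and 8.09 in the DKO buds, against 8.23, 8.08 and 8.05 in the control buds (-0.065, -0.20 to 0.072). The upper ends of these 4 intervals, 0.072 to 0.26, all lie far under the lower end of the interval of Slc2a3.

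**Figure D2:**
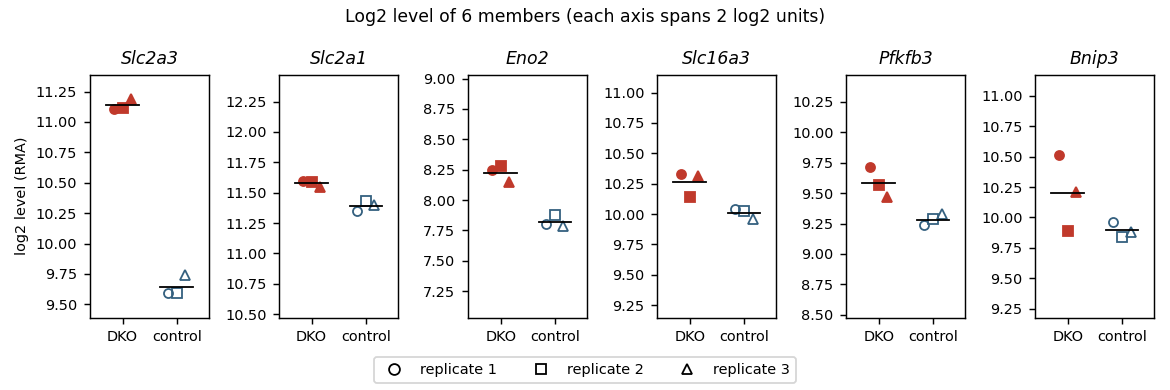
Log2 level (RMA) of 6 genes on each array, with DKO at the left and control at the right of each panel, the group mean as a black bar and the replicate number as the marker shape. Every vertical axis spans the same 2 log2 units. Slc2a3 shows the wide gap between 11.11 to 11.19 in the DKO buds and 9.59 to 9.74 in the control buds, and the DKO values of Bnip3 spread from 9.89 to 10.51.

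Slc2a3 was chosen for comparison with the other members with its large rise known, so the following is a description without a test. The lower bound of its interval, 1.36, was above the highest upper bound among the other 38 members, 0.60 in Bnip3. The next member, Eno2, changed by 0.40. Without Slc2a3 the median of the members was 0.088 and their mean 0.090, against 0.126 for the mean with it. Slc2a3 lies on chromosome 6, where RefSeq places Nanog and Foxj2 as its nearest measured neighbours. Of the 5 measured genes on each side, limma called 0 of 10, beside 2.41% of all genes, a share at which 0 of 10 is not unusual. Their changes ran from -0.35 in the complement receptor gene C3ar1 to 0.13 in Nanog. C3ar1 was the 1 with an unadjusted p under 0.05, beside 12.8% of all genes. Mfap5, Apobec1, Gdf3, Dppa3, Nanog, Clec4a1 and Clec4a3 read below the array medians on every array (Nanog at 6.66 to 6.92). A change is harder to see at such levels, and Foxj2, C3ar1 and Necap1 read above the medians.

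Of the pair of lactate and pyruvate carriers, 0 passed, beside 2.41% of all genes, a share at which 0 of 2 is not unusual. There was 1 higher and 0 lower at an unadjusted p under 0.05 (50%, beside 12.8% of all genes). Slc16a3, the carrier by which glycolytic cells export lactate, had 10.33, 10.14 and 10.32 in the DKO buds, against 10.04, 10.02 and 9.96 in the control buds. The groups did not overlap, with DKO 2 nearest to the controls. The change was 0.25 (SE 0.064, 95% interval 0.11 to 0.40, adjusted p = 0.0966), and it passed without DKO 2 (change 0.31, adjusted p = 0.0111), with a trend (0.0308), with array weights (0.0026) and among the brighter 50% of genes (0.0377). Slc16a1, the carrier used for uptake as well as export, had 9.78, 9.82 and 9.88 in the DKO buds, against 9.88, 9.87 and 9.86 in the control buds (-0.039, 95% interval -0.15 to 0.075), and the groups overlapped.

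Of 13 measured glycolytic enzymes, 1 rose and 0 fell at the threshold (7.69%, beside 2.41% of all genes). There were 4 higher and 0 lower at an unadjusted p under 0.05, which is 30.8% beside 12.8% of all genes. Eno2 encodes the gamma form of enolase, known as a marker of neurons and endocrine cells. It had 8.25, 8.28 and 8.15 in DKO 1, 2 and 3, against 7.80, 7.88 and 7.78 in controls 1, 2 and 3. Every DKO value was above every control value. This is a 1.32-fold rise (change 0.40, SE 0.056, 95% interval 0.28 to 0.53, adjusted p = 0.00715 in limma). The call held without each single array (adjusted p 0.00697 to 0.0468) and was lost with ordinary least squares (0.119). Of 11 measured markers of neural crest and neurons, the microtubule gene Dcx rose and 0 fell at the threshold, while 6 changes were below 0 (median -0.083). The call is 9.09% of the 11 markers, beside 2.41% of all genes. At an unadjusted p under 0.05, 2 of the 11 were higher and 3 lower, which is 45.5% beside 12.8% of all genes. The log2 of the summed levels of the 11 markers was 11.91 to 12.05 in the DKO buds and 11.78 to 11.93 in the control buds, which overlap. The part of neuronal cells in the Eno2 result was not tested.

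The differences in the other enzymes of the pathway were small and did not pass. Ldha, which reduces pyruvate to lactate, had 12.63, 12.58 and 12.64 in the DKO buds, against 12.51, 12.53 and 12.49 in the control buds. Pgk1, which makes the first ATP of the pathway, had 11.88, 11.84 and 11.85 in the DKO buds, against 11.73, 11.73 and 11.75 in the control buds. For both genes the DKO values were all above the control values, by small amounts. The change was 0.10 in Ldha (95% interval -0.0046 to 0.21, adjusted p = 0.417) and 0.12 in Pgk1 (0.017 to 0.23, adjusted p = 0.293). Of the 3 phosphofructokinase genes, which commit sugar to glycolysis, Pfkl (0.12) and Pfkp (0.12) did not overlap between groups, and Pfkm (-0.036) did. The triose isomerase gene Tpi1 stood at 0.13, the hexokinase gene Hk2 at 0.087 and the aldolase gene Aldoa at 0.048, all 3 with overlapping groups. The remaining enzymes were Pgam1 (0.0057), Hk1 (-0.017), Ldhb (-0.025) and Aldoc (-0.067). Their intervals, and those of Tpi1, Hk2, Aldoa and Pfkm, include 0.

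Some of these probes may read more than their named gene. The annotation gives 16 further probes to Hk1 together with the ribosomal gene Rpl17 (changes -0.048 to -0.0034), so the value of Hk1 is uncertain, and its second own probe stood at 0.015. Pgk1 and Pgam1 had 3 probes each, some with identical values, at changes of 0.12 and of 0.0057 to 0.018. The probes of Ldhb differed, at -0.025 in the brighter probe and -0.28 in the other (adjusted p = 0.146 over all 35556 probes).

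RefSeq promoter windows of build GRCm38.p6 show how often the core letters bound by the hypoxia factors occur near these genes. They were available for 36 of the 41 listed genes, without Slc2a3, Slc2a4, Epas1, Bnip3l and Ndrg1, and are printed for Eno2, for 4 further genes high in the order of change with 1 window each, and for Slc2a1, the close relative of Slc2a3. Each line gives the 250 bases before the annotated start, 5′ to 3′ on the strand of the gene, and capitals mark ACGTG or GCGTG on either strand (CACGT or CACGC where the match lies on the opposite strand).
Eno2 (chr6:124769674-124769923, minus strand): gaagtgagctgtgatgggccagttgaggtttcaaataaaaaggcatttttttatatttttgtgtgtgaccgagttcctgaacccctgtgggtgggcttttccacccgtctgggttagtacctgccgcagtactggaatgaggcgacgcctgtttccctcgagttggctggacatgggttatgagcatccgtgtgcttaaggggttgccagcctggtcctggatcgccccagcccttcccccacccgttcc
Bnip3 (chr7:138909507-138909756, minus strand): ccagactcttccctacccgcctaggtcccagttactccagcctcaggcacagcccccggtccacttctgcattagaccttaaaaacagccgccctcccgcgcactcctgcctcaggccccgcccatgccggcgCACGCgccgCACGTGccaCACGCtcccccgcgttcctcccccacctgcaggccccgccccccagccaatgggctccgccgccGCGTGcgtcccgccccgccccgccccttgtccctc
Slc16a3 (chr11:120948817-120949066, plus strand): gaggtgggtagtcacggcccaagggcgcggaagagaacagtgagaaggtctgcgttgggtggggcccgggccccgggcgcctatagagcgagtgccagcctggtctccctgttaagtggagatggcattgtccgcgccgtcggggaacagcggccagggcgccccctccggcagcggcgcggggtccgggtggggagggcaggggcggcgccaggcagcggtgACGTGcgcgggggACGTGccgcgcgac
Egln3 (chr12:54203875-54204124, minus strand): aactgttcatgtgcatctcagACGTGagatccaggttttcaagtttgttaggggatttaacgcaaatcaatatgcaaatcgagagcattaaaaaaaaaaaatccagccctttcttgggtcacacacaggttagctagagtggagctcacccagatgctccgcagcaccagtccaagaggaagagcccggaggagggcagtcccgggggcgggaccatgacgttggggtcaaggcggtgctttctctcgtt
P4ha1 (chr10:59323046-59323295, plus strand): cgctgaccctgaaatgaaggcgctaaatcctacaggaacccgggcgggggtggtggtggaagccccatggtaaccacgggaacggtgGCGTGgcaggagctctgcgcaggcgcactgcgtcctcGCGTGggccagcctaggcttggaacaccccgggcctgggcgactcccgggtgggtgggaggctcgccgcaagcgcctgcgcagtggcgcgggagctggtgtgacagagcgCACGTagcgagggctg
Slc2a1 (chr4:119108495-119108744, plus strand): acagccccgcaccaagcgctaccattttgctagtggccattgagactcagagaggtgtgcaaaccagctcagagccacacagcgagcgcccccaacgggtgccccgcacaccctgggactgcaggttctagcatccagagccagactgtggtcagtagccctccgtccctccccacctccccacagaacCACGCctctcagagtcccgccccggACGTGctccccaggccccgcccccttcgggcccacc

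The Eno2 window holds neither set of letters. The Slc16a3 window holds ACGTG at 2 places close to the start, and the Slc2a1 window holds 1 match of each motif. In Bnip3 the palindrome that contains ACGTG on both strands counts as 2 matches, beside 3 of GCGTG. Over all 51 windows of the listed genes, ACGTG was found in 24 (47.1%), against 16.6% of the 32851 windows of the whole table. GCGTG was found in 28 of the 51 (54.9%), against 28.2%. The windows of the listed genes are richer in CpG pairs, with a median of 14 against 6 in the table. Among windows with at least 14 CpG pairs, ACGTG was found in 18 of 27 (66.7%), against 25.05% of 9646, and GCGTG in 17 of 27 (63.0%), against 56.6%, so the difference in GCGTG was small at this CpG content. Windows of 1 gene can overlap, the list holds genes picked for their response to low oxygen, and a match is a set of letters and not a binding site.

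Of 4 regulators of glycolytic flux, 0 passed, beside 2.41% of all genes, a share at which 0 of 4 is not unusual. There were 1 higher and 1 lower at an unadjusted p under 0.05 (50%, beside 12.8% of all genes). Pfkfb3 makes the allosteric activator of phosphofructokinase, and it had 9.72, 9.57 and 9.47 in the DKO buds, against 9.23, 9.28 and 9.33 in the control buds. The groups did not overlap. Its change of 0.30 (SE 0.069, 95% interval 0.15 to 0.46) came nearest to the threshold of the members that missed it (adjusted p = 0.0637), and it passed with an intensity trend (0.0223), with array weights (0.0339) and without the dimmest 30% (0.0389) or 50% (0.0244) of genes. The related Pfkfb4 stood at -0.056, with overlapping groups. Pdk1 and Pdk3 encode kinases that shut pyruvate out of the mitochondrial cycle. Pdk1 had 9.51, 9.14 and 9.37 in the DKO buds, against 9.29, 9.004 and 9.11 in the control buds, a spread wider than its change of 0.20 (95% interval -0.027 to 0.43). Pdk3 had 10.76, 10.70 and 10.78 in the DKO buds, against 10.91, 10.81 and 10.89 in the control buds. It was the 1 member with every DKO value below every control value (-0.12, 95% interval -0.24 to -0.0023, adjusted p = 0.378).

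Of the 4 genes for hypoxia factors and oxygen sensors, 0 passed, beside 2.41% of all genes, a share at which 0 of 4 is not unusual. There were 2 higher and 0 lower at an unadjusted p under 0.05 (50%, beside 12.8% of all genes). Hif1a had 11.77, 11.77 and 11.78 in the DKO buds, against 11.80, 11.72 and 11.83 in the control buds. The DKO values lay inside the control range, and the interval of the change (-0.0088) ran from -0.12 to 0.11. Its protein, which oxygen controls, was not measured. Epas1, the alpha subunit prominent in endothelium, had 9.22, 9.21 and 9.11 in the DKO buds, against 9.03, 9.01 and 8.91 in the control buds. These groups did not overlap (change 0.20, SE 0.057, 95% interval 0.071 to 0.33, adjusted p = 0.136). Of 12 endothelial markers limma called 0, with 2 (16.7%) at an unadjusted p under 0.05, both higher, beside 12.8% of all genes. For 11 of the 12 markers the change was above 0. The log2 of their summed levels was 13.52 to 13.69 in the DKO buds and 13.44 to 13.49 in the control buds, and the part of endothelium in the Epas1 value was not tested.

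The hydroxylase Egln3, itself a target of the hypoxia factors, had 8.90, 8.76 and 8.67 in the DKO buds, against 8.60, 8.46 and 8.54 in the control buds (0.24, SE 0.070, 95% interval 0.085 to 0.40, adjusted p = 0.139). The DKO values were all higher, the nearest pair being 8.67 and 8.60. Its main relative Egln1 had 9.89, 9.86 and 9.88 in the DKO buds, against 9.90, 9.86 and 9.85 in the control buds (0.0077, -0.10 to 0.12), with the groups on top of each other.

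Of 10 hypoxia response genes limma called 0, beside 2.41% of all genes. Their changes were above 0 for 8, with a median of 0.12. At an unadjusted p under 0.05 there were 4, all higher, which is 40% beside 12.8% of all genes. The 31 further hypoxia targets described below had 12.9% and a median of 0.028. Bnip3, whose protein marks mitochondria for removal, had 10.51, 9.89 and 10.21 in DKO 1, 2 and 3, against 9.96, 9.84 and 9.88 in the control buds. DKO 2 lay within the control range and DKO 1 far above it. The change was 0.31 with a wide interval (SE 0.13, 0.012 to 0.60, adjusted p = 0.365), and it passed without DKO 2 (0.46, adjusted p = 0.0186) and with array weights (0.32, adjusted p = 0.0221). Without DKO 1 the change was 0.15 (adjusted p = 0.529), and the second probe of Bnip3 stood at 0.17 (adjusted p = 0.847 over all 35556 probes). P4ha1, a collagen prolyl hydroxylase, had 10.62, 10.33 and 10.52 in the DKO buds, against 10.22, 10.22 and 10.32 in the control buds (0.24, SE 0.076, adjusted p = 0.196). It too had its lowest DKO value in DKO 2 and passed without that array (0.32, adjusted p = 0.0182) and with array weights (adjusted p = 0.00854).

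Vegfa, the growth factor of vessels, had 10.61, 10.46 and 10.54 in the DKO buds, against 10.40, 10.40 and 10.39 in the control buds. The control values were almost equal and all DKO values were above them (0.14, SE 0.055, 95% interval 0.015 to 0.26, adjusted p = 0.317). Ankrd37 had 8.25, 8.13 and 8.13 in the DKO buds, against 7.96, 8.04 and 7.96 in the control buds, again without overlap (0.18, SE 0.056, adjusted p = 0.175). Kdm3a, a histone demethylase, had 10.51, 10.09 and 10.24 in the DKO buds, against 10.19, 10.09 and 10.18 in the control buds (0.13, 95% interval -0.089 to 0.34). Of the DKO values of Kdm3a, DKO 1 stood clear of the controls, DKO 2 was the lowest of all 6 arrays and DKO 3 lay just above the controls. Ddit4, an inhibitor of mTOR signalling (0.12), and the Bnip3 relative Bnip3l (0.085) were separate between groups. The collagen hydroxylase P4ha2 (0.088), the carbonic anhydrase Car9 (-0.011) and Ndrg1 (-0.048) overlapped. Car9, a target that responds steeply to low oxygen in many tissues, had 6.60, 6.63 and 6.59 in the DKO buds, against 6.64, 6.64 and 6.57 in the control buds.

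**Figure D3:**
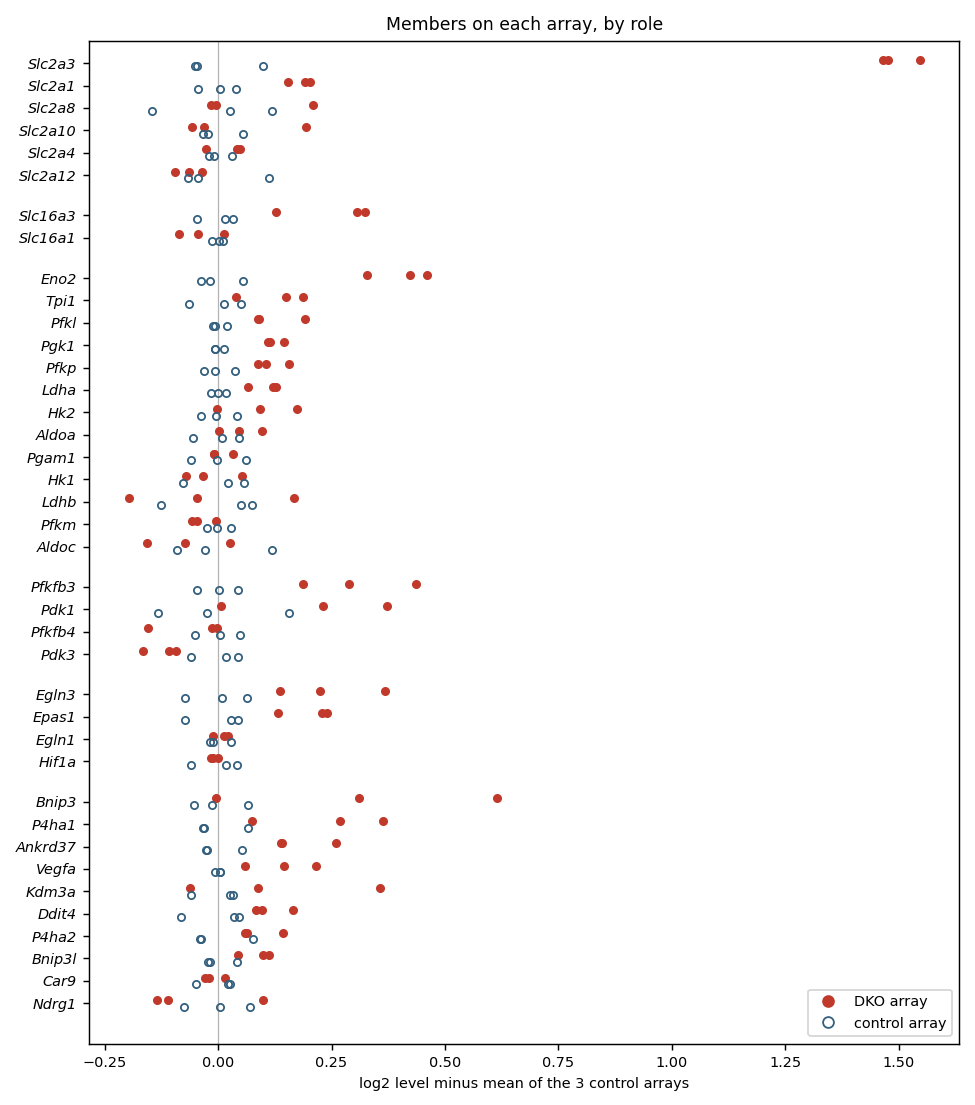
Log2 level of each of the 39 measured genes on each array, minus the mean of the 3 control arrays, grouped by role from transporters at the top to hypoxia response genes at the bottom. DKO arrays are filled red points drawn above the open blue points of the control arrays. The DKO points of Slc2a3 stand alone near 1.5, and those of Bnip3, P4ha1 and Kdm3a are spread widely.

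The upward lean was unequal between the DKO arrays. Across the 39 members, the median difference from the control mean was 0.15 in DKO 1, 0.046 in DKO 2 and 0.089 in DKO 3. Over all genes the same medians were -0.033, 0.029 and -0.0032, in another order. DKO 1 held the highest of the 3 DKO values for 24 of 39 members (61.5%), against 21.1% of all genes. DKO 2 held the lowest for 19 of 39 (48.7%), against 28.3% of all genes. Among the 10 hypoxia response genes, DKO 1 was highest for 8 and DKO 2 lowest for 9. Slc2a3 did not share this order, since DKO 3 was its highest value and DKO 1 its lowest. The DKO arrays also scattered more around their group mean over all genes (SD 0.087, 0.11 and 0.071 in DKO 1, 2 and 3) than the control arrays (0.061, 0.064 and 0.060 in controls 1, 2 and 3).

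**Figure D4:**
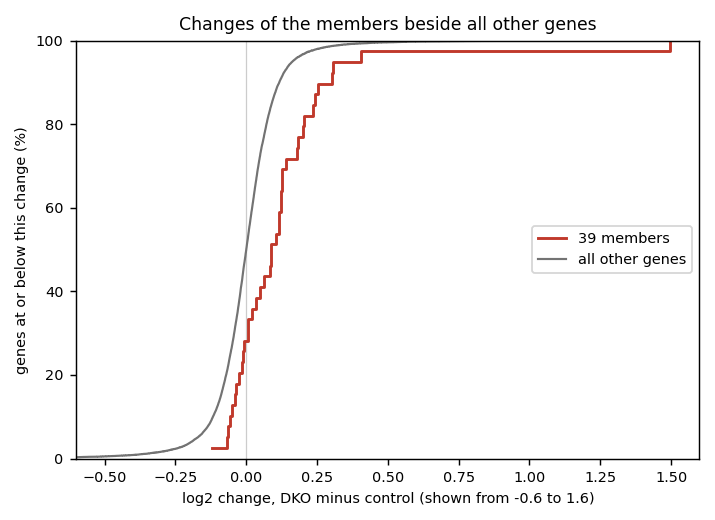
Share of genes at or below a given log2 change, DKO minus control, for the 39 members (red) and all other genes (grey). The middle of the red curve lies to the right of the grey one, with a median of 0.088 for the members, and its last step is Slc2a3 at 1.5.

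Of 115 further measured genes of glucose and oxygen metabolism in 8 lists, 1 rose and 1 fell, which is 1.74% beside the 2.41% of all genes. Both belong to the list of 13 further glycolysis genes, of which they make up 15.4%. There were 2 higher and 2 lower in that list at an unadjusted p under 0.05 (30.8%, beside 12.8% of all genes). Hkdc1, a hexokinase-related gene of gut and other epithelia, had 7.04, 7.07 and 7.23 in DKO 1, 2 and 3, against 7.52, 7.55 and 7.59 in controls 1, 2 and 3. Every DKO value was lower (change -0.44, SE 0.062, adjusted p = 0.00772), and the call was lost with all probes as separate features (adjusted p = 0.0530) and with ordinary least squares (0.153). Pklr, the pyruvate kinase of liver and red cells, had 8.15, 8.36 and 8.46 in the DKO buds, against 7.83, 7.92 and 7.98 in the control buds. Every DKO value was higher (0.41, SE 0.082, adjusted p = 0.0371), but the call held in only 10 of the 16 alternative settings that tested it. It was lost without control 1, 2 or 3 or DKO 3 (adjusted p 0.0972 to 0.169). With all probes as separate features and with ordinary least squares it was lost too, and the highest adjusted p of any setting was 0.285. The log2 of the summed level of 8 markers of liver and visceral endoderm, of which Alb rose and 0 fell, was 10.79 to 11.07 in the DKO buds and 10.55 to 10.68 in the control buds. For 11 erythroid and megakaryocyte markers, of which the platelet gene Pf4 rose and 0 fell, it was 15.09 to 15.12 in the DKO buds and 14.95 to 15.07 in the control buds. The calls are 12.5% of the liver list and 9.09% of the erythroid list, beside 2.41% of all genes. In the same order, 37.5% and 45.5% had an unadjusted p under 0.05, all higher, beside 12.8% of all genes. The part of these cells in the Pklr result was not tested.

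The 8 lists had changes centred near 0. Their median change was -0.0072, with 53 values above 0 and 62 below. Of 12 further transport genes 0 passed, and Txnip, which makes cells take up less glucose, was highest (0.21, adjusted p = 0.0880), followed by the transporter gene Slc2a9 (0.14). Txnip was the 1 transport gene with an unadjusted p under 0.05 (8.33%, beside 12.8% of all genes). Of 11 genes of pyruvate entry (Pdhb 0.12, Mpc1 0.10), 7 of the pentose phosphate branch (Rpia -0.12, Rpe 0.079), 16 of gluconeogenesis and glycogen (Pgm1 0.18, Pygb -0.14) and 17 of the tricarboxylic acid cycle (Sdha 0.10, Suclg2 -0.10), limma called 0. At an unadjusted p under 0.05 there were 3 in gluconeogenesis and glycogen (18.8%, beside 12.8% of all genes) and 0 in the other lists named in that sentence. The 9 further hypoxia regulators (Hif3a 0.24, Arnt2 -0.24) and the 31 further hypoxia targets (Cxcr4 -0.31, Car12 -0.24) had 0 calls too, where 2.41% of all genes were called. At an unadjusted p under 0.05 they had 2 (22.2%) and 4 (12.9%), beside 12.8% of all genes. The further targets had a median of 0.028. The chemokine receptor gene Cxcr4 came nearest to the threshold among them (adjusted p = 0.0531).

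**Figure D5:**
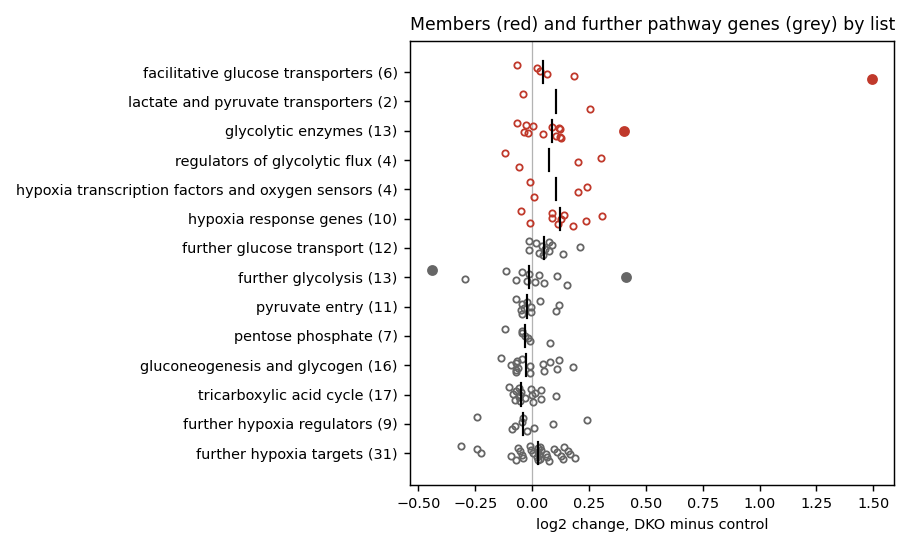
Log2 change, DKO minus control, of every measured gene by list, with the number of genes in brackets, members in red in the upper 6 lists and further genes in grey in the lower 8. Filled points passed the threshold and black bars are list medians. The median of the 10 hypoxia response genes is 0.12 and that of the 31 further hypoxia targets 0.028.

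Markers of several cell types also differed between the genotypes. The log2 of the summed level of 19 lung epithelium markers was 13.46 to 13.65 in the DKO buds and 13.98 to 14.07 in the control buds. For 7 smooth muscle genes, of which 6 fell and Des rose, it was 12.56 to 12.81 in the DKO buds and 13.03 to 13.18 in the control buds. Cardiac muscle markers, of which Myl7 rose among 10, stood at 12.09 to 12.34 in the DKO buds and 11.84 to 11.94 in the control buds. Mesothelial markers, of which Upk1b, Calb2 and Gpm6a rose among 8, stood at 12.29 to 12.34 in the DKO buds and 12.06 to 12.08 in the control buds. Among 13 mesenchyme markers Meox2 rose and 0 fell, with sums of 15.10 to 15.14 in the DKO buds and 15.13 to 15.16 in the control buds. The shares called were 100% of smooth muscle, 10% of cardiac muscle, 37.5% of mesothelial and 7.69% of mesenchyme markers, beside 2.41% of all genes. In the same order, 100%, 50%, 50% and 15.4% had an unadjusted p under 0.05, beside 12.8% of all genes. Those of cardiac muscle and mesothelium were all higher, and those of smooth muscle and mesenchyme went both ways. Of 11 macrophage and leukocyte markers limma called 0, with 5 lower (45.5%) at an unadjusted p under 0.05, beside 6.83% of all genes. Their sums were 11.64 to 11.74 in the DKO buds and 11.79 to 11.84 in the control buds. The part of these cell types in the changes of Slc2a3 and the other members was not tested.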

How the data were processed

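Total RNA from 3 DKO and 3 control samples of E11.5 lung buds (100 ng each, per the labels) was read on 1-colour arrays. The authors deposited log2 expression values for 35556 probes. Per the submitters' processing notes, oligo, limma and RMA were used. Versions, settings and genome build are not given in the sources used here. The table does not state its log base, and base 2 follows from RMA and the range of 3.42 to 14.27. No scanner output was read, and the small number of arrays limits the precision.

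Probes were named from the platform annotation: 21789 probes have 1 gene, 1621 several and 12146 were unnamed here. Symbols were updated through Entrez identifiers (19856 of 19938 genes matched, 0 symbols changed), and the brightest probe stood for each of 999 genes with several. Groups came from the sample titles. limma 3.58.1 in R 4.3.3 (lmFit, eBayes, two-sided) was fitted on all 19938 genes with group as the only term and Benjamini-Hochberg adjustment over them, and was tested on simulated data. Promoter windows are RefSeq, GRCm38.p6. Marker sums add linear levels.

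The members and lists were chosen with earlier results of these data known. The genes named are all members, with values on every array for those past the threshold, the 12 with the largest absolute change, the glucose transporters, Hif1a, Epas1, Vegfa, Ldha and Pgk1, and others where the text turns on them, and Hdac1 and Hdac2. From the further lists they are the genes past the threshold, otherwise the 2 with the largest change. The neighbours of Slc2a3, the promoter windows and the order of the arrays were chosen after the values were seen. Alternatives tried were a block for the replicate number, an intensity trend, robust settings, array weights, a second quantile normalization, median centring, 2 filters on dim genes, the mean of probes, all probes, ordinary least squares and each array left out.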

Additional observations from a re-analysis of the deposited data

How the results depend on the processing

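Slc2a3 passed under all 17 alternatives (changes 1.47 to 1.55, adjusted p 3.80e-08 to 0.0344), and Eno2 under 15 of the 16 that tested it. Eno2 was lost with ordinary least squares (adjusted p = 0.119) and was not tested without the dimmest 50%, where it is left out. Against 2 members higher, there were 5 with an intensity trend, 9 with array weights, 4 without the dimmest 50% and 1 with ordinary least squares, and 2 to 5 when single arrays were left out, with 5 without DKO 2. Members lower stayed at 0 throughout, also without single arrays (0 to 0). The 481 genes past the threshold became 725 with the trend, 2003 with array weights, 208 with all probes and 16 with ordinary least squares, and 197 to 811 without single arrays: 215, 197 and 215 without controls 1, 2 and 3, 811 without DKO 2 and 317 without DKO 3. The further genes, 1 higher and 1 lower, became 2 and 4 with the trend, 7 and 5 with array weights, 2 and 4 without the dimmest 30%, 0 and 0 with all probes and with ordinary least squares, and 3 lower without the dimmest 50%. Without single arrays they were 0 to 3 higher and 1 to 4 lower, with 3 and 4 without DKO 2, 2 lower without DKO 1 and 0 higher without control 1, 2 or 3. Filters and all probes change the number of genes tested, and the other causes were not tested.

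Changes of sign occurred only in members with adjusted p of 0.755 or more under the alternative. With array weights Slc2a8 stood at -0.00024, Slc2a10 at -0.031 and Pgam1 at -0.0041, and with the second quantile normalization Hif1a stood at 0.0010. With single arrays left out, the range was -0.0099 to 0.12 for Slc2a8, -0.045 to 0.081 for Slc2a10, -0.024 to 0.036 for Pgam1, -0.0013 to 0.022 for Egln1, -0.039 to 0.012 for Hif1a, -0.056 to 0.012 for Hk1, -0.12 to 0.060 for Ldhb and -0.035 to 0.0021 for Car9. Of 719 values of 43 genes, 667 kept both direction and side of the threshold. Most of these genes lay far from the threshold, so staying on the same side of it was likely. The block, trend, robust and ordinary least squares settings leave the change itself as it was. The count therefore says little about the few calls.

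The labels give both groups replicate numbers 1 to 3. Deviations of same-numbered arrays correlated at -0.064, 0.046 and 0.16 over genes, so the numbers were not taken to pair the samples. With the replicate block 406 genes passed, the members stayed at 2 higher and 0 lower, and Hdac1 had an adjusted p of 0.0507. Hdac1 was also above the threshold with all probes (0.0644), with ordinary least squares (0.0560) and without DKO 1, DKO 3 or any control (0.0517 to 0.112).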
